A study of Homo sapiens with 3 samples.

Results

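PRUNE2 and PCA3 are a pair of human genes that share 1 locus on chromosome 9, where the long noncoding RNA gene PCA3 lies inside PRUNE2 and is transcribed from the opposite strand. All probe sets that the platform annotation gives to either gene were taken, which were 3 for PRUNE2 and 2 for PCA3 of 54675 probe sets in all, or 2 of 19775 measured genes. PRUNE2 was selected on its measured AbiR minus parental difference, which was among the lowest of all genes, so that its values are given as a description. RNA from 3 lines of C4-2B cells, an established LNCaP derivative that models castration-resistant prostate cancer, was hybridized to 3 Affymetrix HG-U133 Plus 2.0 arrays, 1 for each line. C4-2B MDVR cells are an enzalutamide-resistant subline kept in medium with 20 µM enzalutamide, C4-2B AbiR cells are an abiraterone-resistant subline kept in medium with 10 µM abiraterone acetate, and C4-2B parental cells were grown without either drug and passaged alongside the sublines. All lines were grown in RPMI with fetal bovine serum and antibiotics. The comparison asked which genes differ between cells selected for growth under an anti-androgen drug and the cells they came from.

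PRUNE2 encodes a large protein, also called BMCC1 or BNIPXL, with a phosphoesterase-like domain shared with PRUNE1 and a C-terminal BCH domain shared with BNIP2, a domain through which members of this family bind small GTPases. PCA3, once named DD3, is a prostate-enriched noncoding RNA that is overexpressed in most prostate cancers and is measured in urine as a diagnostic marker. In human prostate cancer cells, PCA3 RNA has been described as pairing with unspliced PRUNE2 RNA into a duplex that is edited by ADAR enzymes, with lower PRUNE2 as the outcome.

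RefSeq promoter sequences of assembly GRCh38.p14 are shown first because the pair has separate start sites, so that the 2 RNAs need not change together. The table held 2 windows for PRUNE2 and 2 for PCA3, each with 250 bases before and 50 bases after a start. The PCA3 windows were offset by 2 bases, and 1 of them is printed. Capitals mark the GC box GGGCGG on either strand.
PRUNE2, upstream start, minus strand, chr9:76906065-76906364: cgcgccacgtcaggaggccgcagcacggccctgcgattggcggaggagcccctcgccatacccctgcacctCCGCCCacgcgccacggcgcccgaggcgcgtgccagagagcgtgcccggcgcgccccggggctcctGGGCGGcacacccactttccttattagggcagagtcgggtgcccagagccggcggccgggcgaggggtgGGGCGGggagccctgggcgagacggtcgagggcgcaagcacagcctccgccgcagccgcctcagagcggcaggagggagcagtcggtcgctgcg
PCA3, plus strand, chr9:76764186-76764485: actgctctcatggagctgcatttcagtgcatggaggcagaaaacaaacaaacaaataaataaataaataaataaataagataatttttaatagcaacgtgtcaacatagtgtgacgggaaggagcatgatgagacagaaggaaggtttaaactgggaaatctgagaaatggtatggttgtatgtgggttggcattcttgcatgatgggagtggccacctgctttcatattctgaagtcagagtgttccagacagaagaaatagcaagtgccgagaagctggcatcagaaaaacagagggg
PRUNE2, downstream start, minus strand, chr9:76692148-76692447: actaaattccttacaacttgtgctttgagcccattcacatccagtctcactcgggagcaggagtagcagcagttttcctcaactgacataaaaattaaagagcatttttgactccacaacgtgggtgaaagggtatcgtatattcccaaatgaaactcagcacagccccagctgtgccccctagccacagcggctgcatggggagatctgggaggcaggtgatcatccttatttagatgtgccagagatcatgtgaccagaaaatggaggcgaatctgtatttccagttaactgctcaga

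The PCA3 start lay between the PRUNE2 starts, 142 kb past the upstream and 72.2 kb before the downstream one in the direction of PRUNE2. The upstream PRUNE2 window had a G and C content of 76.3%, with 39 CG dinucleotides and 3 matches to GGGCGG, a motif that 45.0% of all 35116 windows held. The downstream PRUNE2 window had 47% G and C with 5 CG dinucleotides, and the PCA3 window 40.7% with 3. The 3 kinds of window therefore differed in base composition, and 91.3% of all windows had fewer CG dinucleotides than the upstream PRUNE2 window. None of the 4 windows held, on either strand, the forkhead motif TGTTTAC (3.42% of all windows) or TATAAA (11.5%). This says only that these letters were absent from these windows.

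The deposited values are log2 signals from robust multi-array averaging (RMA), which the authors centred for each probe set. A centred value carries no expression level, and only differences between arrays within a probe set can be read. A steady signal and a signal near background could therefore not be told apart, and the prostate identity of the cells could not be checked from levels of marker genes. With 1 array per line there was no replicate error and no test, and no difference below can be assigned to the drug. For technical noise, 45 spiked bacterial control probe sets had an SD of 0.13 when MDVR was set against parental, of 0.10 when AbiR was set against parental and of 0.12 between the resistant lines. Their largest absolute differences were 0.35, 0.20 and 0.34 in that order. Spiked controls do not cover variation between cultures.

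PRUNE2 was lower in both resistant lines than in parental cells, and lower in AbiR than in MDVR cells. The probe set 212805_at had centred log2 values of 1.64 in MDVR, −1.64 in AbiR and 4.53 in parental cells. The probe set 212806_at had values of 1.69 in MDVR, −1.69 in AbiR and 4.46 in parental cells. The values of 1552455_at were 0.55 in MDVR, −0.55 in AbiR and 3.13 in parental cells. The parental array was the highest and the AbiR array the lowest in all 3 probe sets, an order held by 13.8% of all probe sets. Selection on a low AbiR minus parental value already places AbiR below parental, so only the place of MDVR was left free. The mirrored values of MDVR and AbiR come from the centring, as a pair mirrored around 0 occurred in 53.4% of all probe sets.

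**Figure D1:**
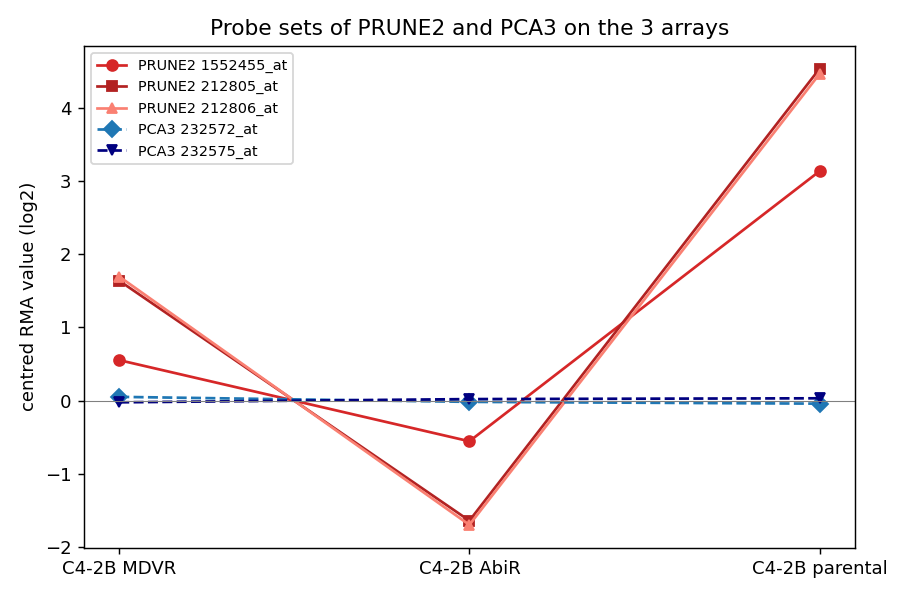
Centred RMA values on the log2 scale (y axis) of the 3 PRUNE2 probe sets (solid lines) and the 2 PCA3 probe sets (dashed lines) on the C4-2B MDVR, AbiR and parental arrays (x axis), 1 array per line of cells. PRUNE2 probe sets are highest on the parental array, at 3.13 to 4.53, and lowest on the AbiR array, while PCA3 values stay within 0.1 of 0.

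The mean PRUNE2 difference was −5.34 on the log2 scale for AbiR minus parental (SD 1.43 over 3 probe sets), or 40.4-fold lower. This is the contrast by which PRUNE2 was selected. At least 2-fold lower signals in AbiR were found for 0.804% of all genes. Of all 54675 probe sets, 1 had a lower AbiR minus parental difference than 212805_at (−6.17) and 2 had a lower one than 212806_at (−6.15). That probe set was 1555801_s_at of the zinc finger gene ZNF385B, at −6.45. The difference of 1552455_at was −3.69, or 12.9-fold, against 72.0-fold and 71.2-fold by the other two. Without 1552455_at the mean was −6.16, which is over 1.5 times as large in fold as the mean of all 3 probe sets.

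For MDVR minus parental, the mean PRUNE2 difference was −2.75 (SD 0.16 over 3 probe sets), or 6.71-fold lower. The probe sets were close to each other here, at −2.58, −2.89 and −2.77 for 1552455_at, 212805_at and 212806_at. A signal at least 2-fold lower in MDVR was found for 1.67% of all genes, and 25 had a lower mean difference than PRUNE2. The parental array is shared by this comparison and the one that selected the gene, so it is no independent observation. MDVR minus AbiR gave a mean of 2.59 (SD 1.29), or 6.02-fold higher in MDVR, and it uses the AbiR array on which PRUNE2 was selected, so that it is no independent observation either. Its probe sets were at 1.11 for 1552455_at, 3.28 for 212805_at and 3.39 for 212806_at. At least 2-fold higher signals in MDVR than in AbiR were found for 0.875% of genes.

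The probe sets of PRUNE2 thus differed on the AbiR array more than on the MDVR array. The SD between them for AbiR minus parental exceeded that of 99.7% of 10523 genes with 2 or more probe sets, while 38.8% of these genes had a smaller SD than PRUNE2 for MDVR minus parental. AbiR minus parental is the contrast that selected PRUNE2, and its median absolute difference over all genes was only 0.13. The rank is therefore a description that sets PRUNE2 mostly against genes that differed little. Among other genes with large AbiR differences, the SD was 2.36 for KLK3, 1.03 for GUCY1A1 and 0.040 for ACADL. The MDVR difference was 0.70 of the AbiR difference on the log2 scale for 1552455_at, 0.47 for 212805_at and 0.45 for 212806_at. Which PRUNE2 transcripts or start sites each probe set reads is not given in the sources used here, and the part of transcript forms or probe background in this spread was not tested.

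PCA3 differed little between the 3 arrays. The probe set 232572_at had centred log2 values of 0.053 in MDVR, −0.016 in AbiR and −0.040 in parental cells. The other, 232575_at, had values of −0.022 in MDVR, 0.022 in AbiR and 0.033 in parental cells. Their orders were not the same, as 232572_at was highest and 232575_at lowest in MDVR. The mean difference was 0.019 for MDVR minus parental (SD 0.10 over 2 probe sets), 0.0067 for AbiR minus parental (SD 0.025) and 0.012 for MDVR minus AbiR (SD 0.080). Each of these was smaller than the SD of the spiked controls, and its sign changed with the scaling of the arrays. The range over the 3 arrays was 0.093 for 232572_at and 0.055 for 232575_at, and 9.49% and 3.74% of all probe sets had a smaller range. A PCA3 signal at the array background and a steady PCA3 level would both give such values.

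PRUNE2 and PCA3 therefore stood apart from each other in the differences between arrays. The PRUNE2 difference minus the PCA3 difference was −2.76 on the log2 scale for MDVR minus parental and −5.34 for AbiR minus parental, and it was 2.58 for MDVR minus AbiR. PRUNE2 had been selected for its low AbiR value, so the size of this gap is a description.

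**Figure D2:**
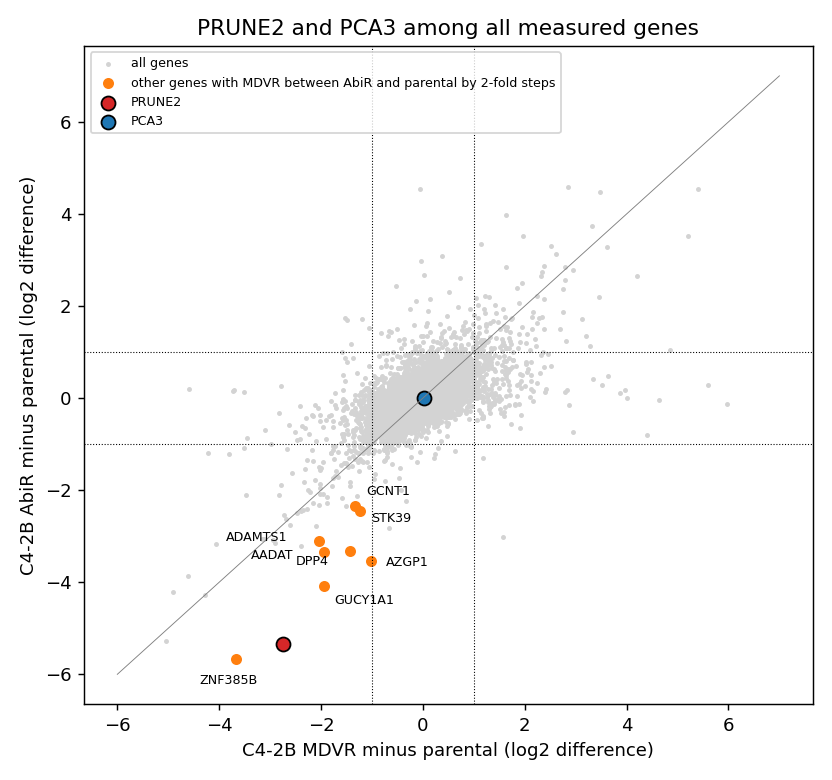
Mean log2 differences of 19775 genes (grey points) are plotted as C4-2B MDVR minus parental (x axis) against C4-2B AbiR minus parental (y axis), with dotted lines at 2-fold and a solid line of equal differences. PRUNE2 lies at −2.75 and −5.34, below the line of equal differences, PCA3 lies at 0.019 and 0.0067, and the 8 orange genes share the order of the arrays by 2-fold steps.

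The stepwise order of the arrays was shared by few genes. At least 2-fold lower signals in MDVR than in parental cells together with at least 2-fold lower signals in AbiR than in MDVR were found for 9 genes (0.0455%), a rule set after the PRUNE2 values were seen. Besides PRUNE2, these were ZNF385B, GUCY1A1, which encodes a subunit of the nitric oxide receptor guanylate cyclase, AZGP1, which encodes zinc-alpha-2-glycoprotein, the peptidase gene DPP4, the aminotransferase gene AADAT, the kinase gene STK39, the metalloprotease gene ADAMTS1 and GCNT1. AADAT, AZGP1 and STK39 were read by 1 probe set each. MDVR minus AbiR was between 1.01 for GCNT1 and 2.59 for PRUNE2, with AZGP1 at 2.51 and GUCY1A1 at 2.14. GCNT1 left this group when arrays were centred on their median (0.98), and ADAMTS1 left it when probe sets with the suffix _s, _x or _a were not used, since both of its probe sets are of these classes.

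Over both differences from the parental array, the gene nearest to PRUNE2 was ZNF385B, with −3.67 in MDVR and −5.66 in AbiR, at a Euclidean distance of 0.98. GUCY1A1 followed with −1.95 and −4.09, at a distance of 1.48. The next were ACADL, a fatty acid oxidation dehydrogenase gene, at −4.28 in both lines and a distance of 1.86, and AADAT at 2.15. The other members of the nearest 10 were PMEPA1, SLC45A3, HECW2-AS1, SNAI2, PTGFR and ZBTB16, with distances of 2.15 to 2.32. Within a distance of 2 there were 3 genes. PRUNE2 thus lay in a sparse part of the plot of all genes, which follows from its selection on a low AbiR value. PCA3 lay in its dense centre, where 2742 genes were within a distance of 0.1. The nearest 10 genes to PCA3 were PRXL2A, NBEAL1, ZNF574, PSMD7-DT, PHF8, BAZ1B, RARRES1, LINC02070, RNF103 and CDX4, all within 0.0048, and their order has no weight against the spiked control SD. These likenesses rest on 3 arrays with a shared parental one.

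The neighbours of PRUNE2 on chromosome 9 were examined next, as the 10 measured genes on each side in the order of RefSeq starts. By this order PCA3, which lies inside PRUNE2, is counted among them. Of these 20 genes, 2 had signals at least 2-fold lower in MDVR, 1 had so in AbiR, and 0 were 2-fold higher in either. Over all 776 measured genes of the chromosome, 1.29% were that much lower in MDVR and 0.387% in AbiR. The median of the neighbours was −0.18 in MDVR and −0.16 in AbiR, against 0.044 and −0.011 over all genes. Differences below 0 were found for 12 of the 20 in MDVR and for 15 in AbiR, against 42.4% and 52.4% of all genes.

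GCNT1, the measured gene next to PRUNE2, encodes the enzyme that starts core 2 branches on O-glycans. Its probe set 205505_at had centred log2 values of 0.63 in MDVR, −0.63 in AbiR and 1.66 in parental cells. The other, 239761_at, had values of 0.38 in MDVR, −0.38 in AbiR and 2.00 in parental cells. Both gave the order of the arrays seen for PRUNE2. The mean GCNT1 difference was −1.33 in MDVR (SD 0.42 over 2 probe sets) and −2.34 in AbiR (SD 0.066), which was 2.51-fold and 5.06-fold lower. RFK, the riboflavin kinase gene that lies beyond GCNT1, had differences of −1.15 in MDVR (SD 0.14 over 2 probe sets) and −0.89 in AbiR (SD 0.22). On the other side, past PCA3 and VPS13A-AS1, the lipid transfer gene VPS13A had differences of −0.95 in MDVR (SD 0.55) and −0.85 in AbiR (SD 0.47), with all 6 probe sets below 0 in both. The order of PRUNE2 was found in 3 of the 6 VPS13A probe sets and in 0 of the 2 RFK probe sets. In those 3, MDVR minus AbiR was only 0.028, 0.16 and 0.19, below the largest spiked control difference of 0.34. AbiR was above MDVR in 2 VPS13A probe sets and 1 RFK probe set, and the resistant lines were equal within 0.001 in 1 probe set of each gene. MDVR minus AbiR was −0.10 for VPS13A, which is smaller than its SD of 0.31 over probe sets.

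**Figure D3:**
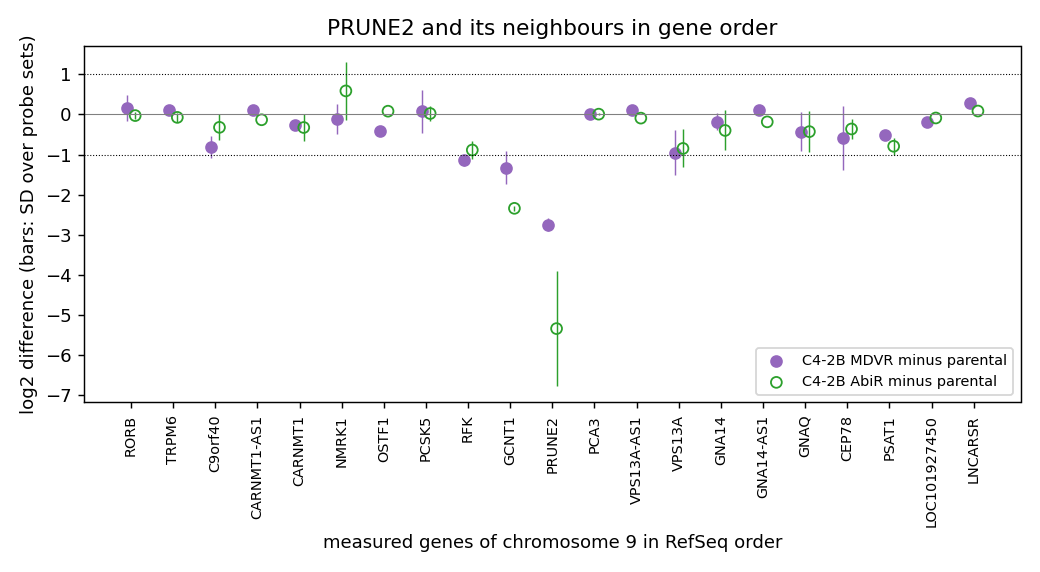
PRUNE2 and the 10 measured genes on each side stand in RefSeq order (x axis) with their log2 differences from parental (y axis), filled for C4-2B MDVR and open for C4-2B AbiR, with bars for the SD over probe sets where a gene has more than 1 and dotted lines at 2-fold. PRUNE2 is lowest at −2.75 and −5.34, and GCNT1 beside it is at −1.33 and −2.34. PCA3, which lies inside PRUNE2 and comes next in the order of starts, is near 0.

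The other neighbours were within 2-fold of parental in both lines. The serine synthesis gene PSAT1 was at −0.52 in MDVR and −0.79 in AbiR, and the G protein gene GNAQ at −0.43 in both. C9orf40 was at −0.82 in MDVR and −0.32 in AbiR. The proprotein convertase gene PCSK5, which lies beyond RFK, was at 0.078 in MDVR (SD 0.53 over 3 probe sets) and 0.023 in AbiR (SD 0.20). The antisense RNA gene VPS13A-AS1 had differences of 0.12 for MDVR and −0.092 for AbiR, and GNA14-AS1 of 0.11 and −0.18. DNA copy number was not measured on these arrays, and its part in the neighbouring values was not tested.

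For comparison with PRUNE2 and PCA3, 756 pairs of a gene and an antisense, intronic or overlapping RNA were matched by their names. The pairs held 727 host genes, as some genes had more than 1 such RNA. Their host genes ranged in MDVR from −1.96 to 5.59 and in AbiR from −1.64 to 2.68, so that PRUNE2 was lower than each of them in both lines. For AbiR this follows from the selection of PRUNE2, and the MDVR comparison shares the parental array with it. Neither was tested. Of 35 pairs whose host gene was at least 2-fold different in MDVR, 32 had an antisense RNA within 2-fold, and the same held for 19 of 20 pairs in AbiR. Over all 756 pairs, 98.7% of the antisense RNAs were within 2-fold in MDVR and 99.5% in AbiR. Host genes at the low end were FRY, with −1.96 in MDVR and −1.38 in AbiR beside FRY-AS1 at −0.15 and −0.17, and the desmosomal cadherin gene DSG2, with −0.94 in MDVR and −1.64 in AbiR beside DSG2-AS1 at −0.16 and −0.35. Both partners were at least 2-fold different in MDVR for ELOVL2, ATP2B1 and DPP10 with their AS1 RNAs, and in AbiR for ATP2B1 with ATP2B1-AS1, in each case in the same direction. ELOVL2, a fatty acid elongase gene, was at −1.62 in MDVR with ELOVL2-AS1 at −1.07. The strand that each probe set reads is not given in the sources used here.

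**Figure D4:**
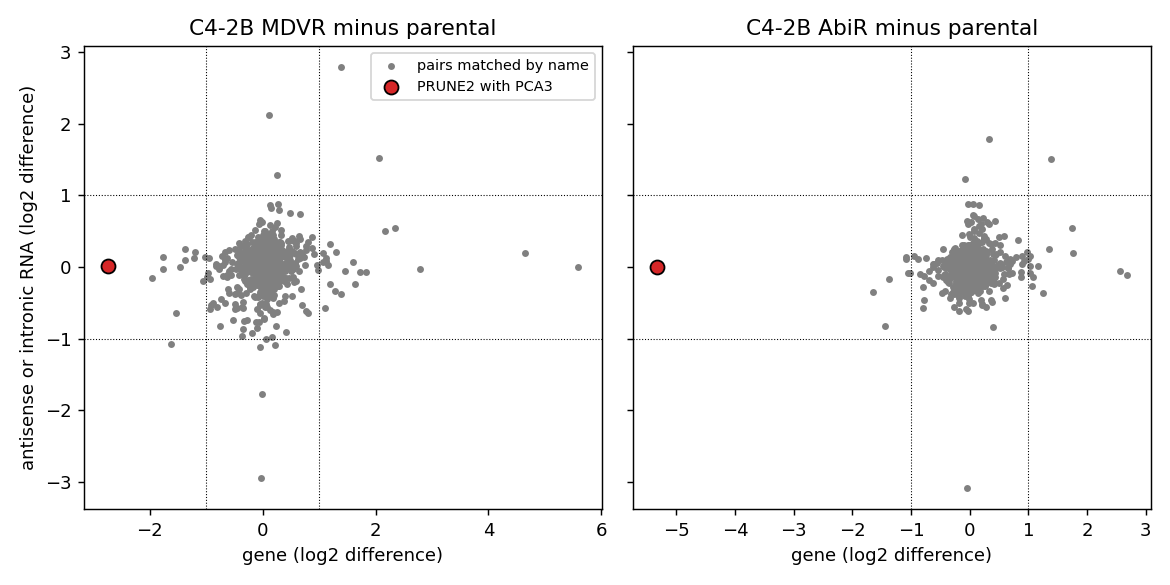
Log2 differences from parental are shown for 756 pairs of a gene (x axis) and an antisense, intronic or overlapping RNA named after it (y axis), with C4-2B MDVR in the left and C4-2B AbiR in the right panel and dotted lines at 2-fold. PRUNE2 with PCA3 lies farthest to the left in both panels, at −2.75 and −5.34, with PCA3 near 0.

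Of 11 BCH, PRUNE and small GTPase genes, which are relatives or partners of PRUNE2, 10 were measured, and 0 were at least 2-fold different from parental in either line. Over all genes, 1.67% were that much lower and 1.65% higher in MDVR, and 0.804% lower and 1.07% higher in AbiR, so that a count of 0 among 10 is near the share of all genes. Their medians were 0.071 in MDVR and −0.055 in AbiR. BNIP2, which shares the BCH domain, was at −0.68 in MDVR and −0.58 in AbiR, and both of its probe sets were lower in both lines. Its 209308_s_at values were −0.034 in MDVR, 0.034 in AbiR and 0.61 in parental cells. PRUNE1, which shares the phosphoesterase-like domain, was at 0.59 in MDVR (SD 0.055 over 4 probe sets) and −0.078 in AbiR (SD 0.13). RHOA, a small GTPase that BNIPXL binds, was at −0.0015 in MDVR and −0.034 in AbiR.

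Of 17 RNA editing and double-stranded RNA genes, 15 were measured, and 0 of them passed 2-fold in either line, which is likewise near the share of all genes (1.67% lower and 1.65% higher in MDVR, 0.804% and 1.07% in AbiR). They had medians of 0.036 in MDVR and 0.010 in AbiR and values between −0.41 and 0.35. ADAR was at 0.35 in MDVR and 0.16 in AbiR by its single probe set, so its MDVR value did not exceed the largest difference of a spiked control. ADARB1, the other catalytically active editing enzyme, was at 0.036 in MDVR (SD 0.31 over 5 probe sets) and 0.010 in AbiR (SD 0.35).

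Among 23 measured long noncoding RNA genes other than PCA3, 2 passed 2-fold upwards in MDVR and 1 in AbiR, against 1.65% and 1.07% of all genes. Downwards, 0 passed it in either line, against 1.67% of all genes in MDVR and 0.804% in AbiR. DRAIC had values of 1.36 in MDVR (SD 0.28 over 2 probe sets) and 0.11 in AbiR, and MALAT1, an abundant nuclear RNA, of 1.19 and 1.15 over 12 probe sets. PCGEM1, a further prostate-enriched RNA, was at −0.29 and −0.19. Like PCA3, 21 of these RNA genes differed by less than 2-fold from parental in both lines. Most measured genes did so too, so this is no trait particular to PCA3 or to these RNA genes.

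Of 15 listed genes of the androgen-induced group, which include the prostate transcription factor genes FOXA1 and HOXB13, 12 were measured. Of these 12, 6 were lower by 2-fold or more in each resistant line, and 0 were higher by as much. Over all genes, 1.67% were that much lower in MDVR and 0.804% in AbiR. The list was chosen with earlier results of these data known, so these counts are a description and enrichment was not tested. The 6 were KLK3, KLK2, FKBP5, SLC45A3, PMEPA1 and ABCC4. FOXA1, HOXB13, TMPRSS2, STEAP4, TRPM8 and NDRG1 were within 2-fold of parental in both lines. The probe sets of KLK2 and ABCC4 were widely spread. KLK2 was at −1.29 in MDVR (SD 1.19 over 4 probe sets) and −2.12 in AbiR (SD 1.93). ABCC4 was at −1.89 in MDVR (SD 1.02 over 4 probe sets) and −2.15 in AbiR (SD 1.15). The lowest mean was that of KLK3 in MDVR at −4.07 (SD 3.23 over 3 probe sets), and in AbiR PMEPA1 at −3.21 (SD 0.83 over 3 probe sets) and KLK3 at −3.17 (SD 2.36) were close to each other. The KLK3 probe sets did not agree in size, as 231629_x_at was at −0.35 in MDVR and −0.44 in AbiR, 204582_s_at at −6.24 and −4.48, and 204583_x_at at −5.61 and −4.57. AbiR was thus above MDVR in the last 2 of these and below it, as for PRUNE2, in 231629_x_at. The mean AbiR difference of PRUNE2 was below the means of all 12 genes, which follows from the selection of PRUNE2 on this difference. Those 2 KLK3 probe sets were still lower in AbiR than 1552455_at of PRUNE2 (−3.69). Of 14 prostate cancer biomarker genes, 1 was below parental by 2-fold or more in MDVR cells and 2 were so in AbiR cells. The shares of all genes were 1.67% and 0.804%, and 0 of the 14 were above parental by as much. The list medians were −0.29 for MDVR and 0.059 for AbiR. MSMB, which encodes a secreted prostate protein, was at −2.26 in MDVR and −2.00 in AbiR. DLX1, which is measured in urine as PCA3 is, was at −0.99 and −1.20 (SD 1.15 over 2 probe sets in each line). The highest of the 14 was ACP3, at 0.64 in MDVR (SD 0.37 over 3 probe sets) and 0.85 in AbiR (SD 0.69).

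**Figure D5:**
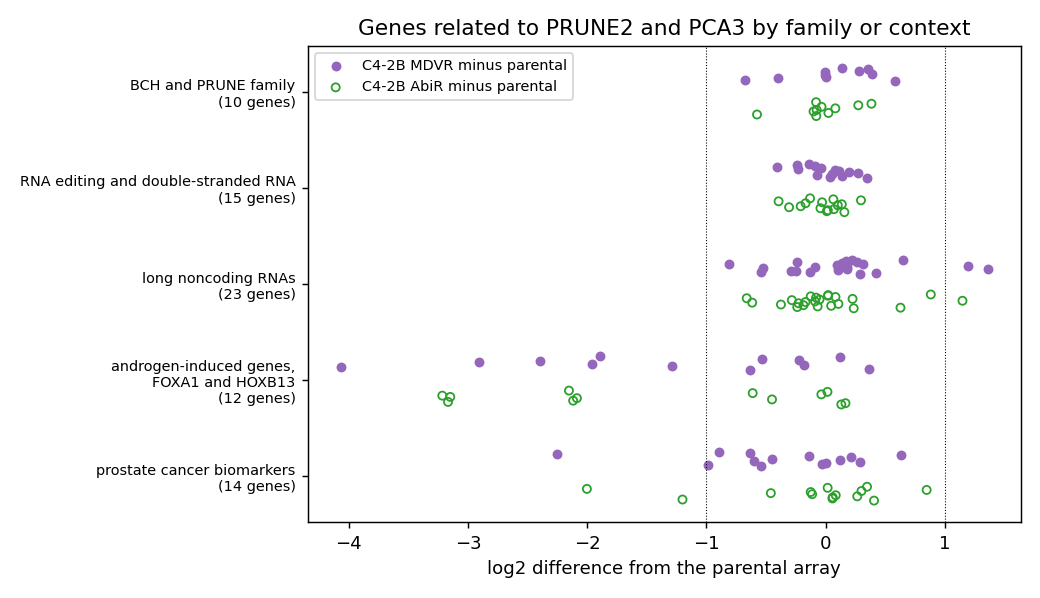
The measured genes of 5 lists (y axis) are placed by their log2 differences from parental (x axis), with filled points for C4-2B MDVR, open points for C4-2B AbiR and dotted lines at 2-fold. All BCH and PRUNE family genes and all RNA editing genes lie inside the 2-fold lines, and the lowest mean, KLK3 in MDVR at −4.07, is in the androgen-induced group.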

How the data were processed

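RNA of 3 C4-2B lines was hybridized to 1 Affymetrix HG-U133 Plus 2.0 array each. The authors deposited log2 values made with RMA, per the submitters' processing notes (version not given in the sources used here), centred for each probe set by a step that is not given there. Groups were taken from the sample labels. Gene names came from the platform annotation, in which 41097 probe sets named 1 gene and were used, and symbols were updated through gene IDs from RefSeq (GRCh38.p14), which matched 99.9% of them. Per gene, log2 differences were averaged over probe sets, and the SD is that between probe sets. Genes at least 2-fold different were counted. There was no test. The nearest 10 genes, the 10 neighbours on each side, the name-matched pairs and the list members at least 2-fold different, plus a few others of known role, were named. PRUNE2, PCA3 and the lists were chosen with earlier results of these data known. Alternatives were other scalings of the arrays, the median over probe sets and leaving out probe sets. The calculation was tested on simulated data. Python 3.11.15, numpy 2.4.6, pandas 2.3.3 and matplotlib 3.10.9 were used. The number of arrays limits the precision.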

Additional observations from a re-analysis of the deposited data

Results flagged for a closer look

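The biomarker genes HOXC6 and STEAP2, each read by 1 probe set, differed from parental in opposite directions in the resistant lines, by more than any spiked control of the same comparison (0.35 for MDVR minus parental and 0.20 for AbiR minus parental). HOXC6 was at −0.54 in MDVR and 0.41 in AbiR, and STEAP2 at −0.90 in MDVR and 0.35 in AbiR. With 1 array per line the difference between the lines was not tested. The share of all genes that differ in this way was not counted, and spiked controls do not cover variation between cultures.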

How the results depend on the processing

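PRUNE2 kept its direction in each comparison under all 7 alternatives, with log2 differences from −2.83 to −2.67 for MDVR minus parental, −6.16 to −4.92 for AbiR minus parental and 2.19 to 3.33 for MDVR minus AbiR. For the median and for leaving out probe sets this was fixed in advance, as all 3 probe sets had the same direction. None of them has the suffix _s, _x or _a, so dropping these classes changed nothing. The lowest AbiR value came without 1552455_at. PCA3 ranged from −0.028 to 0.019, −0.073 to 0.012 and −0.020 to 0.045 in the same comparisons over 4 alternatives. The median over its 2 probe sets and dropping the suffixed classes could not change its values. Its AbiR minus parental value became −0.073 with arrays centred on hybridization controls, which moves every probe set by the same amount. Counts of genes at least 2-fold lower were 339 to 369, against 331 as reported, in MDVR minus parental, 139 to 182 against 159 in AbiR minus parental, and 206 to 239 against 224 in MDVR minus AbiR. GCNT1 was at −1.37 to −1.33 in MDVR and −2.42 to −2.33 in AbiR. Of the neighbours, 3 in place of 2 were at least 2-fold lower in MDVR with the median over probe sets or when the suffixed probe set classes (_s, _x and _a) were dropped, the further one being VPS13A (−1.16 and −1.02). No paired analysis was possible because each line had 1 array. Signal over background is unknown, since the values are centred.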
